A study of Mus musculus with 4 samples.

Results

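The genes described are 9 genes of the Nodal and Lefty signalling pathway, of 22367 protein-coding genes in the GENCODE M1 annotation of the mouse genome build mm9. They were a given list (Nodal, Gdf3, Tdgf1, Acvr2b, Lefty1, Lefty2, Smad2, Smad3 and Smad7) and were located by their symbols. The measurement was the binding of Wapal, a cohesin-associated protein that promotes release of the cohesin ring from DNA, by ChIP-seq in gelatin-adapted mouse embryonic stem cells (ESCs) in standard culture. The libraries came from 2 clones of BirA-expressing ESCs that also carried FB Wapal, a tagged Wapal that the bacterial ligase BirA biotinylates, from 1 line with BirA alone and from 1 input of sheared genomic DNA. FB Wapal was a cDNA expressed from an introduced plasmid beside the cells' own Wapal, and each clone was grown from a single colony. The deposited list joined the regions of both clones, so no value below has a spread between replicates, and no test between samples was possible. Each region has a position and a MACS score, which is 10 times the negative log10 of the region's p-value. Read counts are not part of the lists, and the depth behind a region is unknown here. Of 8497 regions, 174 shared at least 1 bp with 1 of the 266 regions of the BirA line and were left out, and the other 8323 are called Wapal-binding sites. The study also subtracted its BirA regions and reports a slightly smaller number of sites. A site was assigned to a gene when any part of it lay within 100 kb of the transcription start site (TSS).

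Nodal is a secreted ligand of the TGF-beta family that patterns the early embryo and keeps some pluripotent cells from differentiating. It acts through type I and type II activin receptors with the co-receptor Tdgf1, also called Cripto, and the receptors phosphorylate Smad2 and Smad3, which enter the nucleus with Smad4. Lefty1 and Lefty2 are secreted antagonists that are themselves induced by Nodal and so close a feedback loop. CTCF is a zinc finger protein whose bound sites, with cohesin, often mark the ends of chromatin loops.

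The stretches of mm9 in 5 sites near these genes are shown because they hold the closest match to the 12-base CTCF core motif in the nearest or the highest-scoring site of a gene. Each is printed 5′ to 3′ on the strand of the motif, with the motif in capitals and 20 bases on each side. The Nodal stretch is chr10:60862303-60862354 on the minus strand, and the other stretches are on the plus strand. They are chr6:122619542-122619593 for Gdf3, chr9:110825433-110825484 for Tdgf1, chr1:182804290-182804341 for the left site of the Lefty locus and chr1:182906613-182906664 for its right site.
Nodal: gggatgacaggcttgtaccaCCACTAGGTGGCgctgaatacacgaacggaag
Gdf3: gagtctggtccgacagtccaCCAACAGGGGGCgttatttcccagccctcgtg
Tdgf1: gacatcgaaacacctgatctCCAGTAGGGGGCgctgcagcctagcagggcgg
Lefty left: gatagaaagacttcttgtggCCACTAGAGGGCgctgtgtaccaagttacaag
Lefty right: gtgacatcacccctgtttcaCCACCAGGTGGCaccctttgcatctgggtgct
The motifs of Nodal, Tdgf1 and both Lefty sites matched the core motif at every base, and the motif of Gdf3 differed from it at 1 base. Further sites near Gdf3, Tdgf1, Smad2 and Smad3 are also the nearest or highest-scoring of their gene and are not printed. Their best matches had 0 to 2 mismatches. A match is a description of the letters and was not measured as CTCF binding here.

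A Wapal-binding site lay within 100 kb of the TSS of 7 of the 9 genes, while 60.1% of all protein-coding genes had one. Acvr2b and Smad7 had none in that window. Within 50 kb, the ligands Nodal and Gdf3, the co-receptor Tdgf1 and both antagonists had a site, at 17.9 to 41.0 kb, while the receptor Acvr2b and the 3 Smad genes did not, at 58.4 to 183 kb. These 5 of 9 genes stand beside 38.7% of all protein-coding genes. None of the 9 had a site within 10 kb, which 9.13% of all protein-coding genes had. The median distance to the nearest site was 41.0 kb over the 9 genes and 72.5 kb over all protein-coding genes.

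**Figure D1:**
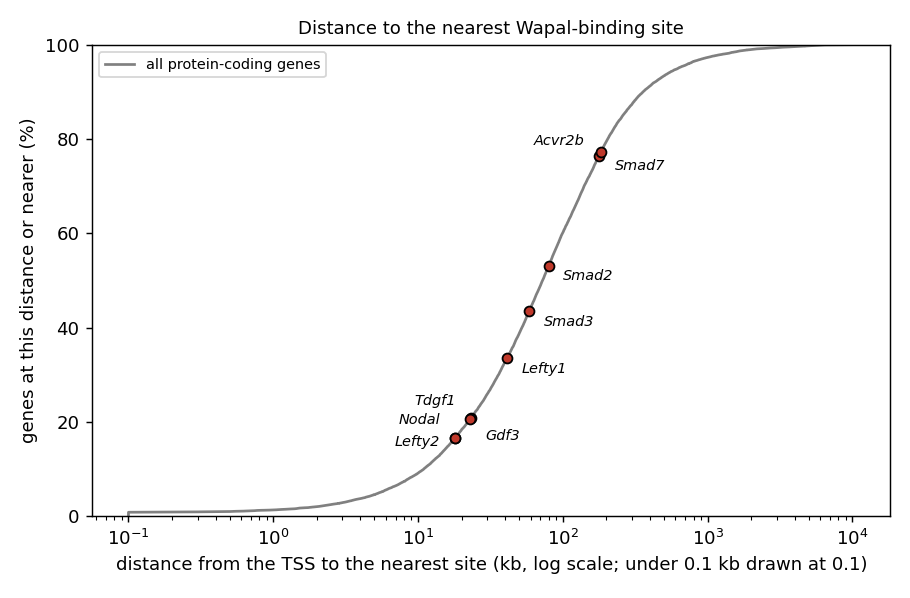
Share of all protein-coding genes (y axis, %) whose nearest Wapal-binding site lies at the given distance from the TSS or nearer (x axis, kb, log scale), with the 9 genes marked on the curve. Lefty2 and Nodal are the nearest, at 17.9 and 18 kb, and Acvr2b and Smad7 the farthest, at 178 and 183 kb.

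The windows held 11 different sites, and 2 of them lay in the windows of both Lefty genes, which gives 13 pairs of gene and site. Of these pairs, 8 lay upstream of the gene and 5 downstream. A gene had a median of 2 sites in its window, and the median over all protein-coding genes was 1. The scores ran from 50.92 to 104.21, with a median of 67.6 beside 81.4 for all sites, and 8 of the 11 lay below the median of all sites. Only 1 of the 11, near Gdf3, had a score of at least 100, which 34.6% of all sites reached. Their median width was 831 bp, beside 812 bp for all sites, and 4 of the 11 were over 1 kb wide, beside 19.1% of all sites. The nearest protein-coding TSS was that of one of the 9 genes for 5 of the 11 sites.

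**Figure D2:**
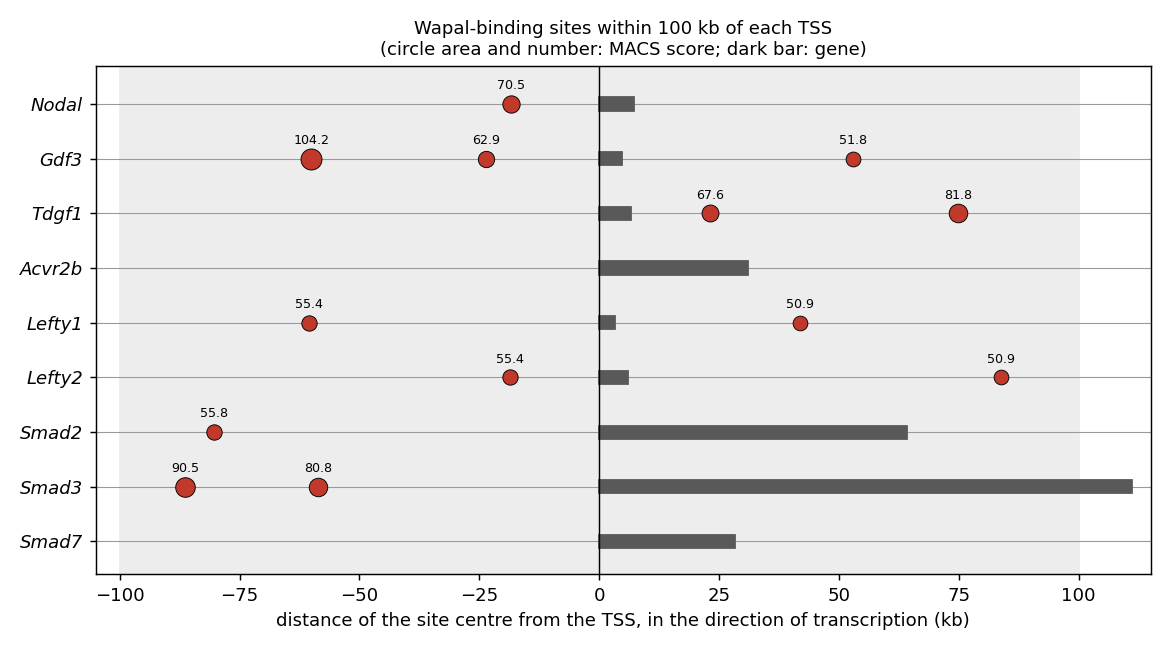
Wapal-binding sites within 100 kb of the TSS of each gene. The x axis is the distance of the site's centre from the TSS in the direction of transcription (kb), each circle is 1 site with its MACS score as number and area, and the dark bar is the gene. Tdgf1 has sites downstream only, Nodal, Smad2 and Smad3 upstream only, Gdf3 and both Lefty genes on both sides, and Acvr2b and Smad7 have none.

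Among the ligands, Nodal (ENSMUSG00000037171, chr10:60880720-60888086, plus strand) had 1 site in its window. The site, chr10:60861896-60862726, lay 18 kb upstream outside any gene, with a score of 70.48 and a width of 831 bp. That score stood at the 37.2 percentile of all sites, below their median of 81.4. The TSS nearest to the site's centre was that of X99384, at 16.0 kb, beside 18.4 kb for Nodal. No site followed downstream of Nodal for 240 kb, where the next one had a score of 98.87. The stretch between these flanking sites was 258 kb long and held the TSSs of 6 protein-coding genes, Nodal included. Of the 6 exact CTCF core motifs within 100 kb of Nodal, 1 lay in the site and 5 lay outside any site.

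Gdf3 (ENSMUSG00000030117, chr6:122555421-122560105, minus strand), a ligand of the same family that is expressed in pluripotent cells, had 3 sites, the most of the 9 genes. It lies in a cluster with Dppa3 and Nanog, genes that are active in pluripotent cells. The nearest site, chr6:122583276-122584068, was 23.2 kb upstream of Gdf3 with a score of 62.89 and a width of 793 bp, and the TSS nearest to its centre was that of Dppa3, at 7.24 kb. The second upstream site, chr6:122619178-122620945, at 59.1 kb, had the highest score of the 11 sites, 104.21, and was 1768 bp wide. The TSS nearest to its centre was that of Nanog, at 37.4 kb. The only downstream site was 52.6 kb from Gdf3, with a score of 51.78 and a width of 767 bp. The sites flanking Gdf3 were 75.8 kb apart, the shortest such stretch of the 9 genes, beside a median of 366 kb over all protein-coding genes. Of the 6 exact core motifs within 100 kb of Gdf3, none lay in a site, and they were 3.14 to 37.5 kb from the nearest one. The 3 sites themselves had a best match to the motif with 1 mismatch in the highest-scoring one and 2 mismatches in the others.

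Tdgf1 (ENSMUSG00000032494, chr9:110842114-110848662, minus strand), the co-receptor, had 2 sites, both downstream. The nearer one, chr9:110825053-110825864, lay 22.8 kb from the TSS outside any gene, with a score of 67.61 and a width of 812 bp, and Tdgf1 was its nearest protein-coding gene by TSS. The farther one, chr9:110773331-110774154, lay 74.5 kb away in an intron of Tmie, with a score of 81.82 and a width of 824 bp, and the TSS nearest to its centre was that of Als2cl, at 8.63 kb. Both held an exact core motif, and these were 2 of the 3 exact motifs within 100 kb of Tdgf1. Upstream of the gene the first site came at 147 kb, with a score of 107.31. The type II activin receptor gene Acvr2b (ENSMUSG00000061393, chr9:119311562-119342619, plus strand) had no site in its window. Its flanking sites lay 294 kb upstream, with a score of 60.89, and 178 kb downstream, with a score of 80.81. The stretch of 472 kb between them was the longest of the 9 genes and held 11 protein-coding TSSs. Its length stood at the 61.3 percentile of the stretches around all protein-coding TSSs. Both exact core motifs within 100 kb of Acvr2b, at 8.78 and 28.1 kb downstream of the TSS, lay outside any site.

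Lefty1 (ENSMUSG00000038793, chr1:182865153-182868531) and Lefty2 (ENSMUSG00000066652, chr1:182823239-182829234) are both transcribed from the plus strand, and their TSSs are 41.9 kb apart. They shared the same 2 sites and differed in which was nearer. The left site, chr1:182803874-182805347, had a score of 55.44 and a width of 1474 bp and lay 17.9 kb upstream of Lefty2 and 59.8 kb upstream of Lefty1. The right site, chr1:182906176-182907950, had a score of 50.92 and a width of 1775 bp and lay 41.0 kb downstream of Lefty1 and 82.9 kb downstream of Lefty2. Of the 2 genes, Lefty2 was thus nearer to the left site, which lay outside any gene, and Lefty1 to the right site. The centre of the right site lay in an intron of Ephx1, the gene of microsomal epoxide hydrolase. Of its 1775 bp, 1665 bp lay in the Ephx1 gene record and the rest beyond the 3′ end of that gene. No site lay between the genes. This was so for 80.6% of the 2554 pairs of protein-coding TSSs that are 40 to 45 kb apart.

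**Figure D3:**
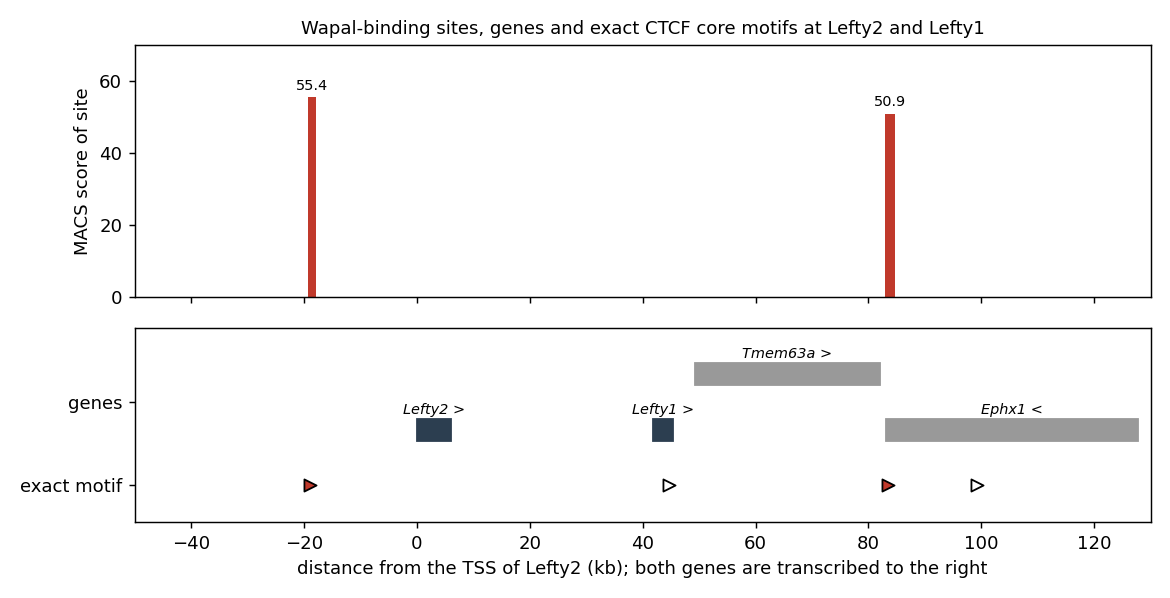
The Lefty locus, with the distance from the TSS of Lefty2 on the x axis (kb). The upper panel gives the MACS score of each Wapal-binding site (y axis), drawn at its width, and the lower panel gives Lefty2, Lefty1, Tmem63a and Ephx1 with their direction and exact CTCF core motifs, filled where they lie in a site and open where they do not. The sites with scores of 55.4 and 50.9 lie on either side of Lefty2, Lefty1 and Tmem63a, and 1 open motif lies in Lefty1.

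The stretch between the 2 sites was 101 kb long, and its length stood at the 9.83 percentile of the stretches around all protein-coding TSSs. It held the TSSs of both Lefty genes and of Tmem63a, a membrane channel gene whose TSS was the nearest to the centre of the right site, at 34.6 kb. The TSS of Lefty2 lay at 17.7% of the stretch from its left end and that of Lefty1 at 59.3%. The next sites were 249 kb beyond the left site, with a score of 83.89, and 567 kb beyond the right site. Both sites were low in score and wide, at the 12.3 and 1.72 percentiles of score and the 95.1 and 97.6 percentiles of width among all sites. The lowest score of any site was 50.0, so both were close to the limit of calling. How the regions of the clones were joined is not given, and its part in scores, widths and edges was not tested. Of the 8323 sites, 57 (0.685%) were at least as wide as the left site with a score no higher than its score. These limits are the left site's own values, so it is among the 57 by definition. The right site, wider and lower in score, is among them too. The share is a description and not a test.

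**Figure D4:**
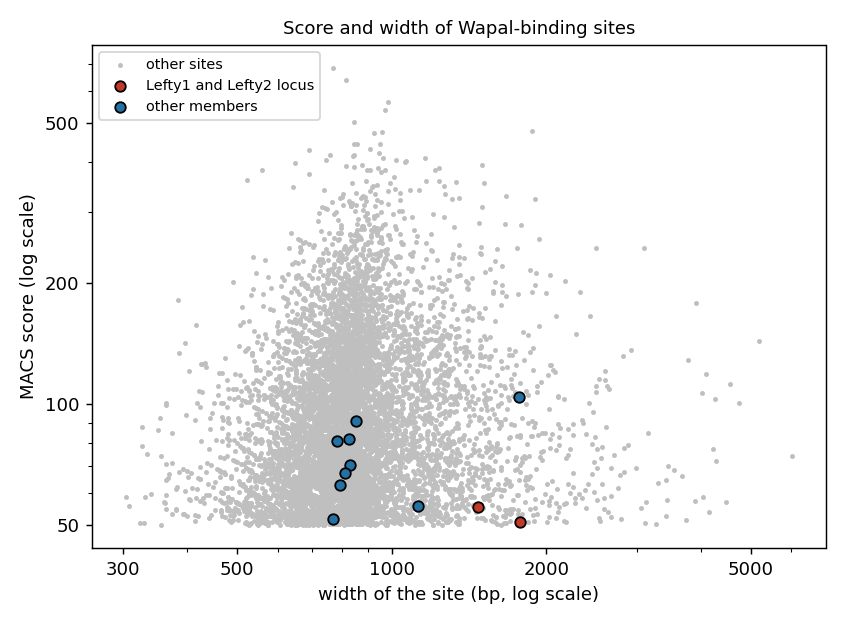
MACS score (y axis, log scale) against width (x axis, bp, log scale) of all 8323 Wapal-binding sites, with the 11 sites near the 9 genes marked. The 2 sites of the Lefty locus lie at the lower right, with scores of 55.44 and 50.92 and widths of 1474 and 1775 bp, and the marked point above them is the Gdf3 site with a score of 104.21.

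Lefty1 and Lefty2 are close copies, and the study kept only reads that matched mm9 at 1 place. Over the gene records, 3 aligned blocks of at least 300 bp were found, 407 bp at 75.7% identity, 777 bp at 90.3% and 393 bp at 97.7%. Of the 3331 windows of 49 bases, the length of read aligned, in Lefty1, 10.2% occurred exactly in Lefty2 and 21.3% occurred there with at most 2 mismatches. The share of such windows with no second exact copy in mm9 was 89.0% in Lefty1 and 93.0% in Lefty2. This share takes no account of copies with mismatches. It was 96.8% in the left site and 97.8% in the right site, and 94.6% and 95.1% in the windows of 100 kb on each side of the Lefty1 and Lefty2 TSSs. The part of these shares in where sites were called was not tested.

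The stretch between the sites held 1 exact core motif, in the coding sequence of Lefty1, 2.77 kb from its TSS and 38.3 kb from the nearest site. It lies in the block of 97.7% identity, and the matching stretch of Lefty2 has 2 mismatches to the motif. The stretches are shown because they tell the copies apart at this motif, which is in capitals, at chr1:182867899-182867950 for Lefty1 and chr1:182827737-182827788 for Lefty2, both on the plus strand.
Lefty1: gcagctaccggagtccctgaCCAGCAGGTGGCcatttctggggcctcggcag
Lefty2: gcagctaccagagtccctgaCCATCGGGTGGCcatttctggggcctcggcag
Counted from 1 at the first base of the motif, with the Lefty1 base first and the Lefty2 base last, the motif differs by G4T and A6G. None of the 38 windows of 49 bases that cover the motif in Lefty1 occurred in Lefty2 with at most 2 mismatches. Of the 364 such windows in the stretch from 200 bases before to 200 bases after the motif, 110 occurred in Lefty2 exactly and 268 with at most 2 mismatches. No site was called at either copy. Over mm9, 18.9% of 12721 exact core motifs lay in a site.

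The study's 2 sets of ChIP-qPCR primers named for Lefty1 matched mm9 at 1 place per primer, at Lefty1 and not at Lefty2. The set named for the promoter gives an amplicon of 178 bp, chr1:182865028-182865205, which starts 125 bp before the TSS and spans it, and the nearest site was 41.1 kb away. The other amplicon is chr1:182863855-182864057 on the plus strand, 203 bp long, and is shown with the primer-binding ends in capitals because it places that assay between the 2 sites.
Lefty1 amplicon: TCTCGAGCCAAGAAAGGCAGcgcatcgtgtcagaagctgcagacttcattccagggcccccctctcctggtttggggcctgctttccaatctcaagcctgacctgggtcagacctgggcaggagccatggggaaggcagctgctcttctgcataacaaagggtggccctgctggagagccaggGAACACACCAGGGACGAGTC
Its centre lay 1.2 kb upstream of the TSS, and the nearest site was 42.2 kb away. The study likewise found no site within 10 kb of Lefty1, but it describes some Wapal enrichment around the TSS. It also reports that Lefty1, a Polycomb-marked gene, was derepressed after Wapal depletion, with a loss of the Polycomb mark H3K27me3. Those measurements were not analysed here.

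The sites differed in how they lay around the motif. In the Nodal site, both Tdgf1 sites and the nearer Smad3 site, which were 783 to 831 bp wide, the best motif lay 370 to 427 bp from either edge. In the Lefty sites the left edge was at a like distance, 436 and 457 bp, and the right edge was at 1026 and 1306 bp. The wide Gdf3 site had the same form, with 384 bp to the left edge and 1372 bp to the right edge. The farther Smad3 site, 851 bp wide, had 181 bp to the left edge and 658 bp to the right edge. Among all sites with 1 motif that were at least as wide as the left Lefty site, the median distance was 454 bp to the nearer edge and 1210 bp to the farther one. Among those up to 1000 bp wide it was 352 and 417 bp. A core motif with at most 1 mismatch was found in 8 of the 11 sites, beside 74.5% of all sites and 9.68% of equally wide regions placed 5 kb before each site. An exact motif was found in 5 of the 11, beside 28.3% of all sites.

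**Figure D5:**
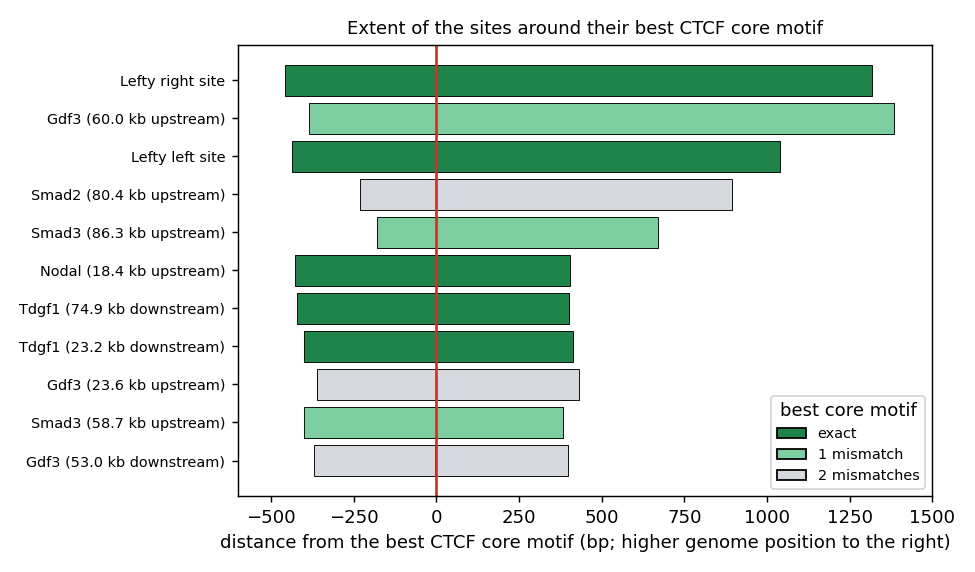
Extent of the 11 sites around their best CTCF core motif, as distance from the leftmost base of the motif (x axis, bp), with 1 bar per site ordered by width and shaded by the number of mismatches to the motif. The 6 sites up to 831 bp wide reach 361 to 427 bp beyond either end of the motif, and the Lefty sites and the widest Gdf3 site reach 1026 to 1372 bp beyond its right end and 384 to 457 bp beyond its left end.

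Among the Smad genes, Smad3 (ENSMUSG00000032402, chr9:63494574-63605801, minus strand), a receptor-activated Smad, had 2 sites, both upstream and outside any gene. The nearer, chr9:63664151-63664933, lay 58.4 kb from the TSS with a score of 80.77 and a width of 783 bp. The farther, chr9:63691690-63692540, lay 85.9 kb away with a score of 90.55 and a width of 851 bp, and both had Smad3 as the nearest protein-coding gene by TSS and a best motif with 1 mismatch. No site lay in the gene itself, and downstream of the TSS the first site came at 295 kb, with a score of 52.86. The only exact core motif within 100 kb of Smad3, at 24.2 kb upstream, lay outside any site.

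Smad2 (ENSMUSG00000024563, chr18:76401234-76465385, plus strand), which acts beside Smad3 downstream of the receptors, had 1 site, chr18:76320264-76321389, 79.8 kb upstream with a score of 55.8 and a width of 1126 bp. Smad2 was the nearest protein-coding gene to it by TSS, and its best match to the motif had 2 mismatches. The first site downstream, at 137 kb, had a score of 175.61. Smad7 (ENSMUSG00000025880, chr18:75527183-75555589, plus strand), an inhibitory Smad that is induced by the pathway and shuts off its receptors, had none. Its flanking sites lay 183 kb upstream, with a score of 65.35, and 230 kb downstream, with a score of 97.46. Smad2 and Smad7 were each the only protein-coding gene with a TSS between the flanking sites, which were 217 and 413 kb apart, and neither window held an exact core motif. Such windows without an exact motif were found around 28.7% of all protein-coding TSSs. The share of windows of 49 bases with no second exact copy in mm9 was 96.7% around Acvr2b, 97% around Smad7 and 98.3% around Smad3. The lowest of the 9 genes was 93.1%, around Smad2.

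The sites nearest to the limit of 100 kb were those of Smad3 at 85.9 kb and the right Lefty site at 82.9 kb from Lefty2. The nearest ones beyond it were at 110 kb from Gdf3, with a score of 126.02, and at 137 kb from Smad2. No region of the BirA line, and no region left out for touching one, lay within 100 kb of any of the 9 TSSs. The nearest BirA region was 625 kb from Smad3.

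A list of 37 other genes of the pathway was looked up in the same way. Of these, 25 (67.6%) had a site within 100 kb, beside 60.1% of all protein-coding genes, and their median distance to the nearest site was 65.3 kb. By role, the counts were 2 of 3 other ligands, 1 of 1 other co-receptor (Cfc1), 1 of 3 other receptors, 4 of 6 extracellular or membrane antagonists and 1 of 3 proprotein convertases. They were 4 of 5 Smads and Smad partners, 6 of 10 intracellular antagonists and 6 of 6 target genes. Within 10 kb there were 3. Inhba, which encodes the activin A subunit, had a site 5.75 kb upstream with a score of 72.31. Fstl3, a secreted binder of activin, had one 8.19 kb upstream with a score of 68.28. Eomes, a transcription factor of mesendoderm, had one 9.69 kb downstream with a score of 63.19 and a width of 2407 bp. The other 12 had no site within 100 kb, with the farthest nearest site for the activin binder Fst at 581 kb, the convertase Pcsk5 at 449 kb, the common partner Smad4 at 333 kb, the activin B subunit gene Inhbb at 253 kb and Tmeff1, which binds Cripto, at 177 kb.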

How the data were processed

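Biotin-mediated ChIP-seq of 2 FB Wapal clones, 1 BirA line and 1 input was analysed from 2 region lists. Per the submitters' processing notes and the study's methods, the authors used Bowtie to place reads on mm9, dropped those with more than 1 match, and ran MACS 1.4.2 on each ChIP library against input at a p of 1e-05. How the clones were joined is not given in the sources used here. Each deposited region carries a score from MACS, 10 times the negative log10 of its p, which cannot be compared between lists.

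Distances run from the TSS of the GENCODE gene record to the nearest edge of a site, and the feature and the nearest TSS of a site, with the distance to that TSS, are taken at its centre. The CTCF core motif was searched on both strands of mm9. Windows of 49 bases were counted over mm9 by exact match, and gene copies were aligned with blastn 2.17.0. Python 3.11.15, numpy 2.4.6 and pandas 2.3.3 were used, and the functions were tested on simulated data. All 9 genes were named, with genes that a site in their windows lies in or nearest to, genes between Lefty2 and Lefty1, and pathway genes within 10 kb of a site or among the 5 farthest from one. The genes, lists and settings were chosen with earlier results of these data known. Alternatives covered the score, the window, BirA removal, the start site, centre distances, the gene set and the motif. Some genes that this rule names are not reported here. Other measurements of the study were not analysed here.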

Additional observations from a re-analysis of the deposited data

How the results depend on the processing

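No paired analysis was possible because 1 list joins both clones, and no replicate could be left out for the same reason. Leaving in the regions that touch BirA regions, or also leaving out those within 1 kb, moved none of the counts or distances over the 9 genes. With a score of at least 100, 1 of the 9 genes (Gdf3) instead of 7 had a site in its window, the different sites fell from 11 to 1, those shared by Lefty1 and Lefty2 from 2 to 0 and the median number of sites from 2 to 0, and the median nearest distance rose to 416 kb. Under that score 27.8% of all protein-coding genes, 10 other pathway genes and 1 site with the motif were left. With a window of 50 kb there were 5 different sites, a median of 1 site, 0 sites shared by the Lefty genes, 38.7% of all protein-coding genes and 16 other pathway genes. Counting from any annotated transcript start gave a median distance of 39.2 kb and 62.3% of protein-coding genes, and distances to site centres gave a median of 41.9 kb. Over all annotated genes the share was 55.3%. Without a mismatch, 5 of the 11 sites held the motif. The cause of these moves lies in the settings themselves, which admit fewer or more sites, starts or genes. With no read counts, binding below the MACS threshold at a gene without a site could not be examined, and the absence of a site says only that none was called.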
